A study of Mus musculus with 15 samples.

Results

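The liver transcriptomes described here belonged to 10 female C57BL/6 mice that were 22 months old at the start and that differed in how far they ran on a treadmill before exhaustion. The mice were divided at a distance of 55 m, with 5 mice at or above it (the longer-distance class) and 5 below it (the shorter-distance class), out of 15 mice sequenced in all. The longer-distance class held O3, O4, P1, P2 and P3, and the shorter-distance class held O1, O2, O5, P4 and P5. Mice whose names begin with O received corn oil by daily gavage, and those beginning with P received protectin DX (PDX), a lipid mediator made from docosahexaenoic acid, in corn oil at 30 ng per g of body weight for 9 weeks. Treatment was therefore not balanced between the classes, with 2 vehicle and 3 PDX mice at the longer distances and 3 vehicle and 2 PDX mice at the shorter distances, and it entered each gene model as a covariate. The remaining 5 animals were Adult mice of the same strain and sex, 6 months old at the start and given corn oil, and their levels are quoted only as a reference. Each library came from poly(A) RNA of the liver of 1 mouse, so that fewer cells of a type and less RNA per cell cannot be told apart.

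The treadmill speed was raised step by step and the distance in meters was recorded when a mouse no longer kept up. Distances in the longer-distance class were 59.1 m in P2, 63.4 m in O3, 73.2 m in P1, 76.9 m in O4 and 78.8 m in P3. In the shorter-distance class they were 33.9 m in O2, 41.0 m in P5, 46.2 m in P4, 46.6 m in O5 and 53.9 m in O1. These distances defined the classes and carry no test. The mice nearest to the border were P2 and O1, which differed by less than several pairs of mice within a class. Adult mice ran between 67.0 and 101.2 m (median 96.4 m), so that 3 of the longer-distance mice reached the Adult range.

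The liver supplies working muscle with glucose, first from glycogen and then by gluconeogenesis from lactate, glycerol and amino acids, and it oxidizes fatty acids and exports ketone bodies as fasting or exercise continues. The same hepatocytes make cholesterol, convert it to bile acids and secrete it into bile. Abcg5 and Abcg8 encode half-transporters that pair to pump cholesterol and plant sterols across the canalicular membrane into bile, and neither works without the other. Fatty acid oxidation, ketogenesis, gluconeogenesis, lipogenesis, sterol and bile acid genes were therefore examined beside markers of the blood, immune, stromal and vessel cells that a piece of liver can hold.

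Abcg8 had the smallest unadjusted p of both gene fits below, and Abcg5, its partner and neighbour, was also near the top of both. Their shared start region is shown because the genes lie head to head on chromosome 17. The RefSeq start sites used, in GRCm38.p6, are 84683011 for Abcg5, which is read from the minus strand, and 84683121 for Abcg8, which is read from the plus strand, 110 bases apart. Abcg8 has 2 RefSeq windows, and the window that shares the most bases with that of Abcg5 was chosen. Each window below runs 5′ to 3′ in the direction of its own gene, from 250 bases before to 50 bases after the start, at chr17:84682962-84683261 for Abcg5 and chr17:84682871-84683170 for Abcg8. Capitals mark the 209 bases that both windows hold, as reverse complements of each other.
Abcg5: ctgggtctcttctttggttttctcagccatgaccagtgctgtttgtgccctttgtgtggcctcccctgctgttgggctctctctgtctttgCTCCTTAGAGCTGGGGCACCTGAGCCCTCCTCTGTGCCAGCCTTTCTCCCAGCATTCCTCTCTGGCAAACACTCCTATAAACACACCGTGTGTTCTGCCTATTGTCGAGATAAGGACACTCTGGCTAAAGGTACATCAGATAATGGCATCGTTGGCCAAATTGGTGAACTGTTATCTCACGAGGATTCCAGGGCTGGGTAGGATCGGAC
Abcg8: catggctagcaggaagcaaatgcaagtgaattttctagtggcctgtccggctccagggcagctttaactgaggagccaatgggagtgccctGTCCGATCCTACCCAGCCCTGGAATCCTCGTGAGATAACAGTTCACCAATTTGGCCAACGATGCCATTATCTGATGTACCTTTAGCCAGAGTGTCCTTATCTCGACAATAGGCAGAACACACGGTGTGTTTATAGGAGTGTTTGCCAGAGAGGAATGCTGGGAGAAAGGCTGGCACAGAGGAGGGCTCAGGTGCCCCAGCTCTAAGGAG
The letters GATAAG, the core of a GATA factor site, occurred 1 time in each whole window of 300 bases, counting both strands, and lay in the shared stretch. Of all 32851 promoter windows, 7.44% held them at least 1 time. The letters AGGTCA, a nuclear receptor half-site, occurred in neither window and in 16.3% of all windows. In the GENCODE annotation Abcg5 spans 84658234 to 84683011 and Abcg8 spans 84676302 to 84700333, so the gene bodies overlap on opposite strands, and the authors counted read pairs by strand.

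The 10 libraries held between 25480180 and 30139181 counted read pairs, and the classes did not differ detectably in depth (adjusted p = 0.833, exact permutation test of 5 against 5 mice, two-sided, Benjamini-Hochberg adjustment over 4 library measures). The share of counts in the 10 most counted genes, the number of genes detected and the mean correlation with the other libraries also had adjusted p = 0.833 in the same exact permutation tests. Of these mice, 2 stood apart, O2 and O5, and both were shorter-distance vehicle mice. Correlations of log2 CPM (counts scaled to a common library total) among the other 8 libraries lay between 0.955 and 0.982, whereas those of O2 with the others lay between 0.828 and 0.942 and those of O5 between 0.828 and 0.871. Hepatocyte markers summed to 110248 CPM in O2 and 121154 CPM in O5, below the 166087 to 259813 CPM of the other 8 mice. Comparisons below were also fitted without O2 and O5. Those fits leave O1, P4 and P5 in the shorter-distance class. O1, the mouse of that class nearest to the border, is then its only vehicle mouse.

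**Figure D1:**
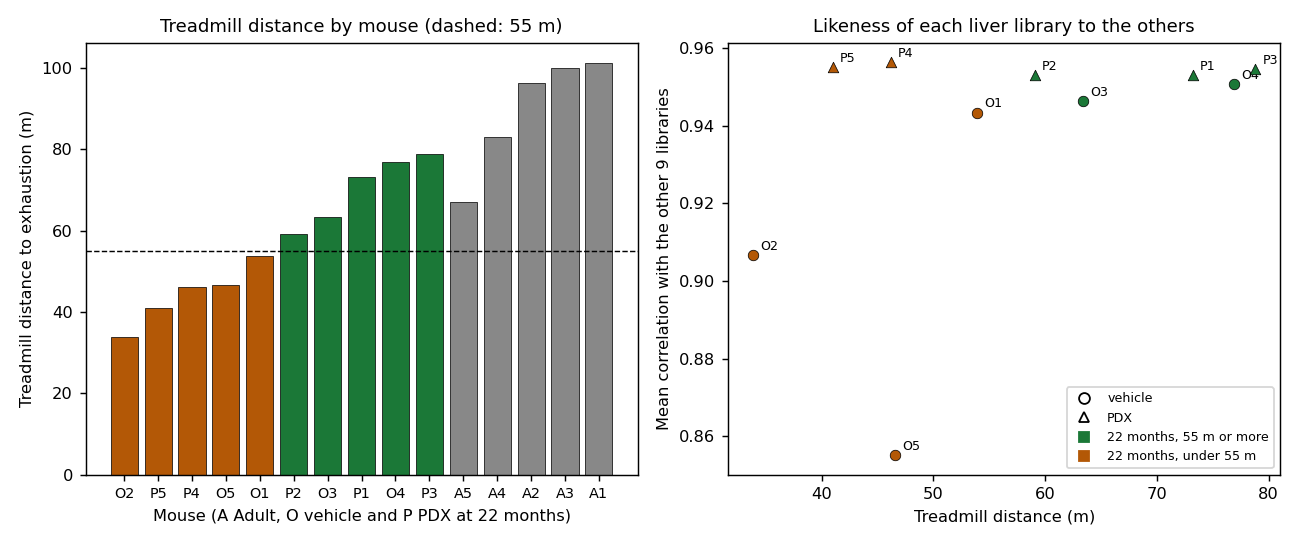
The left panel shows the treadmill distance in meters of each of the 15 mice as a bar, with the 55 m border dashed, and the right panel shows, for each 22-month mouse, the mean correlation of its log2 CPM with the other 9 libraries against its distance. O2 (0.907) and O5 (0.855), both in the shorter-distance class, lie below the other 8 mice, which lie between 0.943 and 0.956.

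The other measures of physical performance were compared first, to ask whether the mice that ran farther were also more active, stronger or less frail. None of 5 measures passed the test. Voluntary wheel running was 1.00 ± 0.211 km per day (SD, n = 5) in the longer-distance class and 0.70 ± 0.495 km per day (SD, n = 5) in the shorter-distance class (adjusted p = 0.794, exact permutation test, two-sided, adjusted over the 5 measures). The lowest wheel value, 0.0399 km per day, belonged to O5, and the highest, 1.38 km per day, belonged to O1, both in the shorter-distance class. Walking speed on the rotarod was 14.0 ± 6.08 rpm against 10.8 ± 1.64 rpm (adjusted p = 0.794, exact permutation test). Grip force was 145 ± 10.9 g against 149 ± 15.2 g, and the frailty index was 0.198 ± 0.0963 against 0.26 ± 0.176 (both adjusted p = 0.853, exact permutation tests). The average weekly body weight change was -0.444 ± 0.313% against -0.455 ± 2.38% (adjusted p = 0.984, exact permutation test), with both extremes of the shorter-distance class, 3.07% and -3.55%, in O2 and O5. The classes overlapped in all 5 measures, and O4, which ran 76.9 m, had the lowest walking speed, 5 rpm, and 4 positive frailty criteria, a count to which the treadmill test itself contributes.

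Gene expression was then compared between the classes, to ask which liver genes differed with endurance. Of 15423 genes tested with the quasi-likelihood test of edgeR, 0 passed an adjusted p of 0.05 (0% of the genes tested), and the smallest adjusted p was 0.9999. At an unadjusted p under 0.05 there were 47 genes with higher levels in the longer-distance class (0.305%) and 39 with lower levels (0.253%), in all fewer than the 5% that such a threshold lets through when no gene differs. The levels of the classes did not overlap for 21 genes higher in the longer-distance class (0.136%) and 13 lower (0.0843%). Without O2 and O5, 0 of 15789 genes passed, and 244 (1.55%) and 149 (0.944%) were higher or lower at an unadjusted p under 0.05. DESeq2 also called 0 genes by class, with 148 at an unadjusted p under 0.05. The genes below are therefore given as values, ordered by their unadjusted p.

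The smallest p of the class comparison belonged to Abcg8 (ENSMUSG00000024254). Its levels were 83.1 CPM in O3, 95.6 in O4, 145 in P1, 102 in P2 and 115 in P3, against 60.3 in O1, 50.4 in O2, 50.3 in O5, 84.0 in P4 and 61.4 in P5. The classes overlapped only through P4 and O3, and within the vehicle mice and within the PDX mice every longer-distance mouse was above every shorter-distance mouse. With only 100 labelings within treatment, this order has a chance of 0.01 in a gene that does not differ. Many of 15423 genes can therefore have it by chance. How many genes had it was not counted, and Abcg8 was picked for its small p. The difference was 0.73 ± 0.16 on the log2 scale (SE), 1.66-fold, with an unadjusted p of 0.00105 by edgeR. It was 0.74 within the vehicle mice and 0.73 within the PDX mice (log2 CPM), and 0.67 ± 0.16 without O2 and O5 (unadjusted p = 0.00256, edgeR).

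Its partner Abcg5 (ENSMUSG00000040505) had the fourth smallest p. Its levels were 62.9 CPM in O3, 84.1 in O4, 128 in P1, 95.2 in P2 and 101 in P3, against 57.8 in O1, 52.9 in O2, 32.6 in O5, 75.7 in P4 and 56.8 in P5. Again the classes overlapped across treatments and not within either treatment, an order that was not counted over all genes. The difference was 0.67 ± 0.20 on the log2 scale, 1.59-fold (unadjusted p = 0.00792, edgeR), and 0.58 ± 0.17 without O2 and O5 (unadjusted p = 0.0087, edgeR). The Adult livers held 115 to 179 CPM of Abcg5 and 123 to 223 CPM of Abcg8, above every shorter-distance mouse and above 4 of the 5 longer-distance mice for both genes, the exception being P1.

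Both genes also had small p-values in the fit against distance, which used the measured meters in place of the classes. Abcg8 was higher by 0.25 ± 0.05 on the log2 scale for each 10 m (unadjusted p = 0.000637, adjusted p = 0.963, edgeR), the smallest p of that fit as well. Abcg5 was higher by 0.22 ± 0.07 for each 10 m (unadjusted p = 0.00806, edgeR). In the 8 mice without O2 and O5 the slopes were 0.26 ± 0.05 for Abcg8 and 0.24 ± 0.05 for Abcg5 (unadjusted p = 0.000994 and 0.00126, edgeR). The 2 fits use the same mice and the same distances, and the 2 genes are neighbours, so these values are not independent of each other. Leaving out each mouse in turn kept the sign of both genes in both fits.

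**Figure D2:**
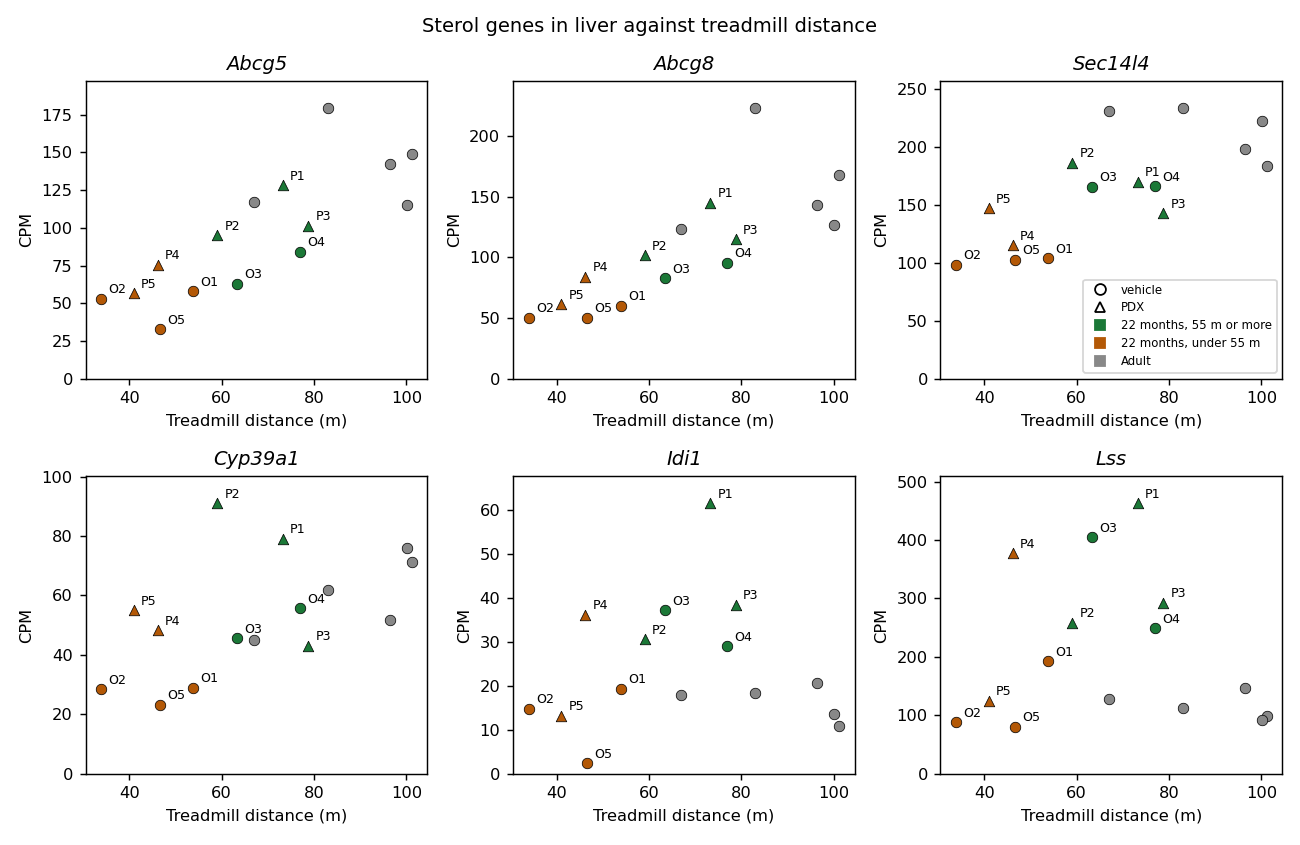
Each panel plots the level of 1 gene in CPM, on a linear axis from 0, against the treadmill distance in meters, with 1 point per mouse, circles for vehicle and triangles for PDX. Abcg5 and Abcg8 lie higher in the mice that ran farther within each treatment, with Abcg8 between 50.3 and 84.0 CPM under 55 m and between 83.1 and 145 CPM above it, whereas the Idi1 and Lss levels of the classes overlap through P4 and their Adult levels lie low.

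The remaining genes with the smallest p among those higher in the longer-distance class were Sec14l4, Thbd and Cyp39a1. Sec14l4, a lipid-binding protein of the Sec14 family, had 143 to 186 CPM in the longer-distance mice and 98.2 to 147 CPM in the others, which overlapped through P3 and P5, with a log2 difference of 0.52 ± 0.15 (unadjusted p = 0.00695, edgeR) and 0.46 ± 0.14 without O2 and O5. The Adult mice had 183 to 234 CPM of Sec14l4. Cyp39a1, a hydroxylase of oxysterols on the way to bile acids, had 43.0 to 91.0 CPM against 23.2 to 55.04 CPM, with a difference of 0.69 ± 0.22 (unadjusted p = 0.00988, edgeR) and 0.58 ± 0.23 without O2 and O5. Among the PDX mice its levels overlapped through P3, P4 and P5, and the 3 vehicle mice of the shorter-distance class had 23.2, 28.4 and 28.9 CPM. Thbd encodes thrombomodulin, the thrombin receptor of endothelium. It had 10.5 to 17.6 CPM against 6.402 to 10.3 CPM and did not overlap between the classes, with a difference of 0.68 ± 0.21 (unadjusted p = 0.00982, edgeR) and 0.86 ± 0.17 without O2 and O5. With the border at 60 m, which moves P2 to the other class, the differences were 0.32 for Thbd, 0.43 for Cyp39a1 and 0.39 for Sec14l4 (unadjusted p = 0.271, 0.154 and 0.0691, edgeR), and the Thbd slope was 0.12 per 10 m (unadjusted p = 0.21, edgeR).

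On the lower side the smallest p belonged to Gt(ROSA)26Sor, Aph1c, Sertad3, Mmp9 and Lsm11, all genes of low level in this tissue. Gt(ROSA)26Sor, the transcript of the Rosa26 locus, had 4.75 to 7.41 CPM in the longer-distance mice against 6.49 to 17.7 CPM, with a log2 difference of -0.79 ± 0.24 (unadjusted p = 0.00921, edgeR). Aph1c, a subunit gene of gamma-secretase, had 1.17 to 2.38 CPM against 1.65 to 5.66 CPM, with a difference of -0.997 ± 0.35, and the 2 highest values were those of O5 and O2. Mmp9, the gelatinase of neutrophils and macrophages, had 1.92 to 4.33 CPM against 1.27 to 24.3 CPM, with a difference of -1.77 ± 0.65. P4 held the highest Mmp9 value, O2 had 10.7 and O5 had 7.14 CPM, while P5 lay within the range of the longer-distance mice and O1, at 1.27 CPM, below it. Sertad3 and Lsm11 had differences of -0.68 ± 0.25 and -0.65 ± 0.24. Without O2 and O5 the differences were -0.68 for Gt(ROSA)26Sor, -0.62 for Aph1c, -0.60 for Sertad3, -1.24 for Mmp9 and -0.46 for Lsm11. Leaving out P4 alone gave -0.86 for Mmp9 and -0.50 for Gt(ROSA)26Sor (unadjusted p = 0.274 and 0.0644, edgeR).

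Among the pathway lists, cholesterol synthesis had the largest positive median difference. Over its 24 genes the median log2 difference between the classes was 0.72, beside -0.03 over all genes tested, and 4 genes had an unadjusted p under 0.05, all higher in the longer-distance class, beside 0.305% of all genes. Among these were Idi1, an isomerase of isoprenoid units, Lss, which closes the sterol ring, and Msmo1, a sterol demethylase. Lss had 249 to 463 CPM against 80.4 to 377 CPM, with a difference of 0.93 ± 0.40. Idi1 had 28.9 to 61.4 CPM against 2.45 to 36.1 CPM, with a difference of 1.13 ± 0.50, and Msmo1 had a difference of 0.95 ± 0.41. The differences of Lss and Msmo1 without O2 and O5 were 0.54 ± 0.37 and 0.56 ± 0.32.

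O5 had the lowest level of Idi1, Lss and Msmo1. In the 8 mice that remained without O2 and O5, the median over the cholesterol synthesis list was 0.32, beside 0.01 over all genes, and 2 genes had an unadjusted p under 0.05, both higher, beside 1.55% of all genes, among them Idi1 with a difference of 0.80 ± 0.34. Against distance, Lss, Mvk and Cyp51 had an unadjusted p under 0.05 with slopes of 0.36, 0.31 and 0.32 on the log2 scale per 10 m, and the list median was 0.26 beside -0.01 over all genes (45 genes, 0.292% of all, had a positive slope at that threshold). The list median of the slopes was 0.12 without O2 and O5, with 0.19, 0.16 and 0.22 for Lss, Mvk and Cyp51. Summed over the list, the longer-distance mice held 7494 to 11501 CPM and the shorter-distance mice 1709 to 10329 CPM, with the highest shorter-distance value in P4. The Adult mice held 5316 to 7250 CPM, below every longer-distance mouse, the opposite order to that of Abcg5 and Abcg8.

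Bile acid genes and lipogenic genes had smaller differences. In the bile acid list of 17 tested genes the median log2 difference was 0.30, and it was 0.03 over 18 genes without O2 and O5. In the 10 mice, 1 gene was higher at an unadjusted p under 0.05, beside 0.305% of all genes. This was Cyp27a1, the sterol 27-hydroxylase of the acidic bile acid pathway, with 462 CPM in O3, 488 in O4, 548 in P1, 608 in P2 and 430 in P3, against 400 in O1, 317 in O2, 225 in O5, 401 in P4 and 402 in P5. The classes did not overlap, and the difference was 0.50 ± 0.20 (unadjusted p = 0.0356, edgeR), or 0.34 ± 0.14 without O2 and O5. Acox2, a peroxisomal enzyme of bile acid side-chain shortening, had a slope of 0.18 ± 0.07 per 10 m (unadjusted p = 0.0379, edgeR) and 0.06 without O2 and O5. Cyp7a1, the rate-limiting enzyme of bile acid synthesis, had a difference of 0.46 ± 0.49, within its error. In the lipogenesis list of 16 genes the median was 0.47 (0.19 without O2 and O5), and Me1, the malic enzyme that supplies NADPH, was the 1 gene with an unadjusted p under 0.05, again beside 0.305% of all genes. Me1 had 78.3 to 177 CPM against 25.3 to 76.1 CPM without overlap, with a difference of 0.75 ± 0.31 and 0.58 ± 0.25 without O2 and O5. Against distance, the list medians were 0.13 for lipogenesis and 0.13 for bile acid genes in the 10 mice, and -0.04 and -0.01 in the 8.

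Genes of fuel supply, the lists closest to the work of the exercising liver, had small medians. None of 23 genes of gluconeogenesis, glycogen and lactate had an unadjusted p under 0.05 in either fit, and their median log2 difference was 0.03. G6pc, the last step of glucose release, had a difference of 0.39 ± 0.34, and Pygl, the liver glycogen phosphorylase, had 0.43 with an unadjusted p of 0.317. Leaving out O2 and O5 gave 0.58 ± 0.37 and 0.06 ± 0.14. Over 27 genes of mitochondrial fatty acid oxidation and ketogenesis the median was 0.12, and it was -0.20 without O2 and O5. In that list Cyp4a10, a PPAR alpha target that hydroxylates fatty acids, had a slope of 0.44 ± 0.16 per 10 m (unadjusted p = 0.0183, edgeR), with 52.3 CPM in P2 and 422 to 611 CPM in the other 4 longer-distance mice against 95.1 to 266 CPM in the shorter-distance mice, and its slope in the 8 mice was 0.38 ± 0.19. The related gene Cyp4a14 had a class difference of 0.55 (unadjusted p = 0.313, edgeR). Over 74 respiratory chain subunits the median was 0.08 and -0.11 without O2 and O5, and none had an unadjusted p under 0.05 in the fits of 10 mice.

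**Figure D3:**
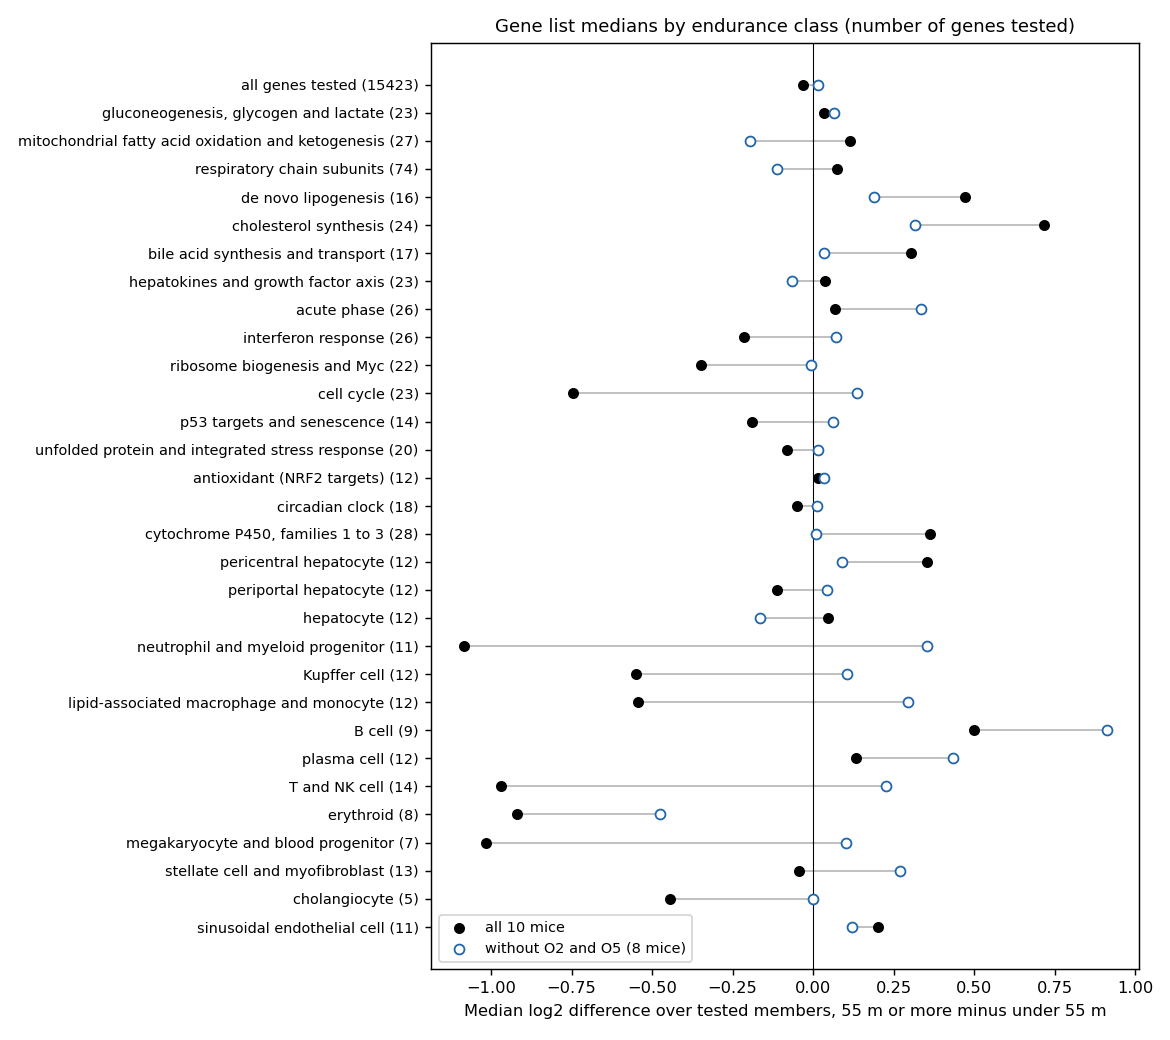
Each row is a gene list with its number of genes tested in the 10 mice. The points give the median log2 difference between the classes over tested genes, filled for all 10 mice and open for the 8 mice without O2 and O5. The open points cover 18 bile acid, 15 T and NK cell and 9 erythroid genes. Cholesterol synthesis (0.72 and 0.32) and de novo lipogenesis (0.47 and 0.19) lie above 0 in both fits, whereas the neutrophil list goes from -1.09 to 0.35 and the cell cycle list from -0.75 to 0.14.

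The fit against treadmill distance had 0 genes past an adjusted p of 0.05 by edgeR (0%), with 45 positive slopes (0.292%) and 214 negative slopes (1.39%) at an unadjusted p under 0.05. DESeq2 called 3 of 15423 genes in the same comparison (0.0195%). These were Abcg8 with a slope of 0.25 ± 0.05 (adjusted p = 0.00971, DESeq2), Slc4a1 with -1.53 ± 0.31 (adjusted p = 0.00832, DESeq2) and Ltf with -1.11 ± 0.24 (adjusted p = 0.0309, DESeq2). When O2 and O5 were left out, DESeq2 called none of these 3, with an adjusted p of 0.136 for Abcg8, the smallest of the 3. It called 1 gene then, Eci3, an enoyl-CoA isomerase, with a slope of -0.40 per 10 m (adjusted p = 0.00396, DESeq2), a fit chosen after the data were seen. Without O2 and O5, edgeR gave 164 positive slopes (1.04%) and 99 negative slopes (0.627%) at an unadjusted p under 0.05.

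Besides the Abcg pair, the positive slopes with the smallest p belonged to Bmp2, Ier2 and Plpp1. Bmp2, a ligand by which sinusoidal endothelium tells hepatocytes to make hepcidin, had 18.0 to 26.7 CPM in the longer-distance mice and 8.74 to 22.3 CPM in the others, with a slope of 0.23 ± 0.07 per 10 m (unadjusted p = 0.00609, edgeR). The lowest Bmp2 values were those of O2 and O5, and the slope without them was 0.14 ± 0.06. Hamp, which encodes hepcidin, ranged from 7.82 to 1916 CPM and had a slope of 0.30 with an unadjusted p of 0.553. Ier2, an immediate early gene, had a slope of 0.26 ± 0.08, and Plpp1, a lipid phosphate phosphatase, had 0.17 ± 0.06, with 0.21 and 0.14 in the 8 mice. On the negative side, Aph1c had a slope of -0.38 ± 0.11 and Col11a2, a fibrillar collagen gene, had -0.49 ± 0.14. Col11a2 reached 11.6 CPM in O2 and 6.74 in O5 beside 1.34 to 3.50 CPM in the other 8 mice, and its slope without both was -0.20 ± 0.12.

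Genes of blood cells were among those with negative slopes. Of 8 tested erythroid genes, 7 had a negative slope with an unadjusted p under 0.05, as did 8 of 11 genes of neutrophils and their progenitors and 3 of 7 genes of megakaryocytes and blood progenitors, beside 1.39% of all genes. By class, 0 genes of these 3 lists had an unadjusted p under 0.05. Slc4a1, the anion exchanger of the red cell, had 107 CPM in O2, 10.7 in P2, 8.85 in P4 and 3.75 in P5, and between 0.42 and 1.17 CPM in the other 6 mice. Its edgeR slope was -1.55 ± 0.39 per 10 m with O2 and -0.61 without that mouse (unadjusted p = 0.00253 and 0.0975). Ltf, the lactoferrin of neutrophil granules, had 42.8 CPM in O2, 8.98 in O5, 8.70 in P2, 4.96 in P4 and 4.85 in P5, and between 0.52 and 2.11 CPM in the other 5 mice. Its edgeR slope was -1.10 ± 0.29 with O2 and -0.77 without that mouse (unadjusted p = 0.00328 and 0.0261).

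O2, the mouse with the shortest distance, held the highest summed level of the neutrophil list (280.9 CPM), the erythroid list (1189 CPM), the megakaryocyte list (149.6 CPM) and the T and NK cell list (265.6 CPM). The longer-distance mice held 27.7 to 208 CPM of the neutrophil list, with the highest value in P2, 124 to 485 CPM of the erythroid list, with the highest value in O3, 15.5 to 29.4 CPM of the megakaryocyte list and 11.1 to 54.8 CPM of the T and NK cell list. O5 held 51.2, 103, 28.9 and 5.08 CPM of the 4 lists in that order, the lowest erythroid and T and NK cell sums of the 10 mice. The shorter-distance mice other than O2 and O5 held 35.7 to 94.7, 210 to 492, 16.3 to 38.5 and 11.7 to 24.9 CPM. Each of the 4 ranges then overlapped that of the longer-distance mice.

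The erythroid genes differed from the other blood lists in what remained without O2 and O5. Of the 9 erythroid genes tested in the 8 mice, 5 had a negative slope with an unadjusted p under 0.05, beside 0.627% of all genes. By contrast, 0 of 11 neutrophil genes and 0 of 7 megakaryocyte genes did. The 5 were Hba-a1, Hba-a2, Hbb-bs and Hbb-bt, the adult globins, and Alas2, the first enzyme of erythroid heme synthesis. Hba-a1 had 31.9 CPM in O1, 183 in O2, 15.2 in O5, 74.8 in P4 and 50.9 in P5, against 65.7 in O3, 19.8 in O4, 16.3 in P1, 36.9 in P2 and 23.2 in P3. Its slope was -0.53 ± 0.16 per 10 m (unadjusted p = 0.00866, edgeR) and -0.46 ± 0.14 without O2 and O5 (unadjusted p = 0.00895, edgeR). Leaving out O2 alone, which keeps the low value of O5, gave -0.32 with an unadjusted p of 0.132. Hba-a1 and Hba-a2 are nearly identical copies, as are Hbb-bs and Hbb-bt, so reads that fit both copies were not counted and these genes are not separate evidence. How much blood each liver piece held was not tested.

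**Figure D4:**
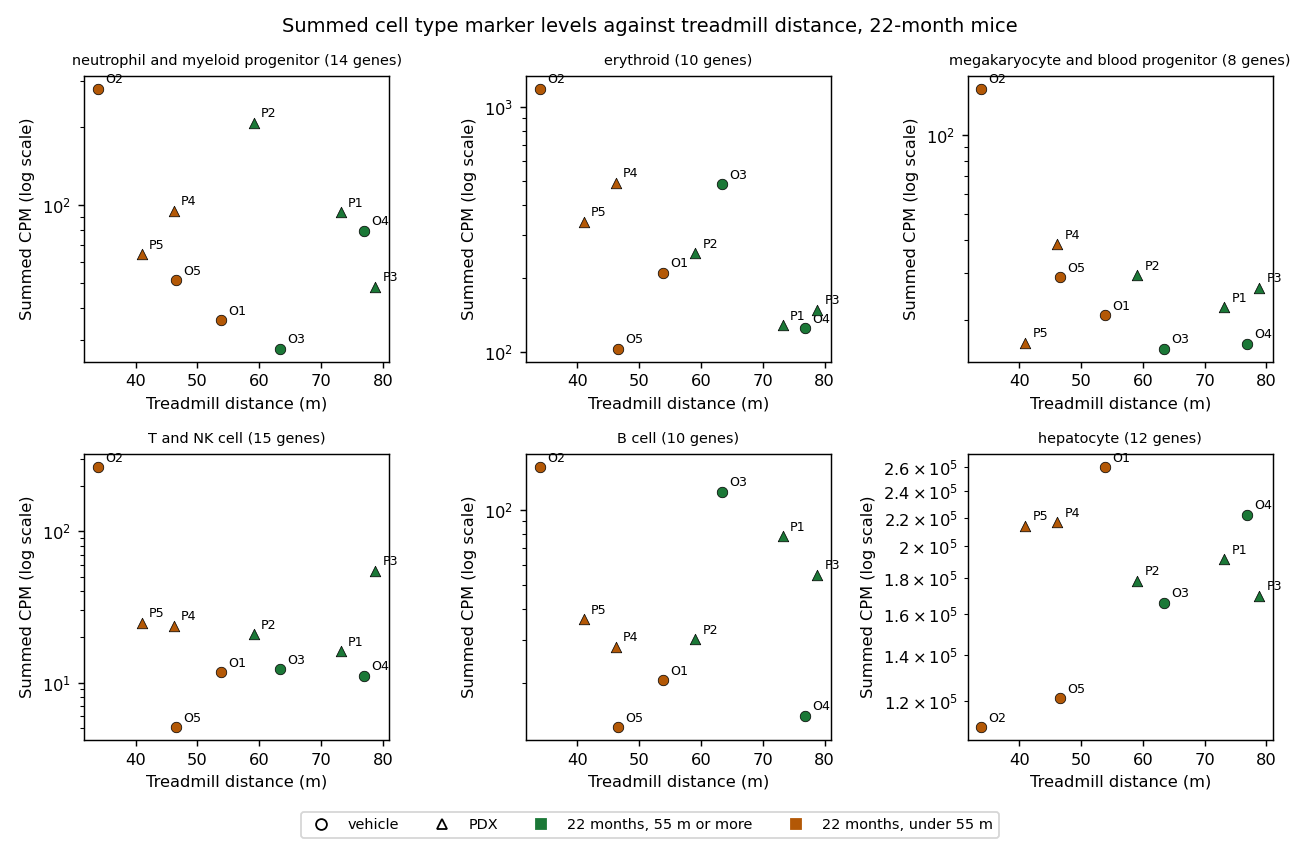
Each panel plots the summed CPM of 1 cell type marker list, on a log axis, against the treadmill distance in meters of the 22-month mice, with circles for vehicle and triangles for PDX. O2, at 33.9 m, has the highest value of the 5 blood and lymphoid lists and the lowest of the hepatocyte list. O5, at 46.6 m, has the lowest erythroid value, 103 CPM. Without O2 and O5 the erythroid values lie between 124 CPM in O4 and 492 CPM in P4. They do not fall steadily with distance, with 485.5 CPM in O3 at 63.4 m and 210 CPM in O1 at 53.9 m.

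Other cell type lists had no more than single members with an unadjusted p under 0.05 by class. Cd163, the haptoglobin-hemoglobin scavenger receptor of Kupffer cells, had 2.82 to 6.66 CPM in the longer-distance mice and 4.15 to 19.4 CPM in the others, with a log2 difference of -1.07 ± 0.45 (unadjusted p = 0.0371, edgeR). Its slope was -0.42 ± 0.16 per 10 m, and -0.39 ± 0.11 without O2 and O5 (unadjusted p = 0.0216 and 0.00736, edgeR). The Adult mice held 16.9 to 29.7 CPM of Cd163, above all but O5. Marco, another Kupffer cell receptor, had a class difference of 0.88 ± 0.82, and 1.90 ± 0.59 without O2 and O5, with 197 CPM in P3 and 91.3 CPM in O5. Over the 12 Kupffer cell genes the median went from -0.55 to 0.10 when O2 and O5 were left out.

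Collagen genes and some macrophage genes had other slopes once those 2 mice were left out. Of 13 stellate cell genes, 0 had an unadjusted p under 0.05 in the fits of 10 mice, and 5 had a positive slope at that threshold without O2 and O5, beside 1.04% of all genes. The 5 were Col1a1, Col1a2, Col3a1, Lum and Timp1, genes of the collagen matrix and of its protease inhibitor. Col1a1 had 188 CPM in O5, 90.0 in O2, 64.0 in P3 and 14.1 to 26.6 CPM in the other 7 mice, so that its slope was -0.04 ± 0.28 per 10 m in all 10 mice and 0.39 ± 0.12 in the 8. Over 12 genes of lipid-associated macrophages and monocytes the median slope was -0.31 in the 10 mice, with 3 above 0 and 9 below. In the 8 mice it was 0.07, with 7 above 0 and 5 below. Slopes at an unadjusted p under 0.05 numbered 0 positive and 2 negative in the 10 mice, beside 0.292% and 1.39% of all genes. They numbered 2 and 0 in the 8 mice, beside 1.04% and 0.627%. In this list, Gpnmb had 71.7 CPM in O5 and 27.3 in O2, and its slope was 0.19 ± 0.33 in the 10 mice and 0.60 ± 0.21 in the 8. Mmp12, a macrophage elastase, had 0.43 ± 0.20 and 0.56 ± 0.17. Gpnmb and Mmp12 were below 1 CPM in every Adult mouse. The 9 tested B cell genes had a median class difference of 0.50, and 0.91 without O2 and O5, with the highest sum in O2 (149 CPM) and the next highest in O3 (119 CPM). Over 12 plasma cell genes the median was 0.13 and 0.43.

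The other lists had 0 genes with an unadjusted p under 0.05 by class in the 10 mice, and several of their medians had another sign in the 8 mice without O2 and O5. Medians went from -0.97 to 0.22 for T and NK cell genes, from -0.22 to 0.07 for interferon response, from -0.75 to 0.14 for cell cycle, from -0.19 to 0.06 for p53 targets and senescence and from -0.08 to 0.02 for the unfolded protein and integrated stress response. They also went from -0.05 to 0.01 for circadian clock, from -0.11 to 0.04 for periportal genes, from 0.04 to -0.16 for hepatocyte markers and from 0.04 to -0.07 for hepatokines. Others kept a median on the same side or at 0, with 0.07 and 0.33 for acute phase, of which 3 genes were then higher and 1 lower at an unadjusted p under 0.05 beside 1.55% and 0.944% of all genes. The values were -0.35 and -0.01 for ribosome biogenesis and Myc, 0.01 and 0.03 for NRF2 targets, 0.36 and 0.01 for cytochrome P450 families, 0.35 and 0.09 for pericentral genes, -0.44 and 0.00 for cholangiocyte genes and 0.20 and 0.12 for sinusoidal endothelial genes. Some members with the smallest p were set apart by O2 or O5. Among them was Lect2, a hepatokine, with 6.35 CPM in O5 and 73.1 to 144 CPM in the other 9 mice, and Cyp2d9, a cytochrome P450, with 477 CPM in O5 and 1.64 to 9.73 CPM in the others. Sdsl, a serine dehydratase of periportal cells, had 219 CPM in O5 beside 7.01 to 22.7 CPM in the others. In O2, Hmox1, which degrades heme, had 251.6 CPM beside 21.9 to 80.7 CPM, Tap1, a peptide transporter induced by interferon, had 154 CPM beside 18.0 to 59.8 CPM, and Cd4, the helper T cell coreceptor, had 116 CPM beside 0.33 to 3.28 CPM. Kdr and Oit3, genes of sinusoidal endothelium, had class differences of 0.44 ± 0.22 and 0.40 ± 0.22, and 0.20 and 0.21 without O2 and O5. The mitotic gene Birc5 had a slope of -0.62 per 10 m (unadjusted p = 0.0178, edgeR) and -0.19 without both mice. Pf4 and Ppbp, chemokines of platelets, had slopes of -1.01 and -0.89, and -0.29 and -0.44 without both. O2 held 531.5 CPM summed over the cell cycle list, beside 89.4 to 143.8 CPM in the other 9 mice. In O2, Mki67, a marker of dividing cells, reached 62.7 CPM beside 1.77 to 7.93 CPM in the other 9 mice. A cell cycle median without O2 alone was not computed.

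A set of 26 key liver genes was compared 1 at a time. None passed in the exact permutation test of class with labels permuted within treatment (100 labelings, two-sided, smallest p 0.06, smallest adjusted p 0.967; the smallest p these labelings allow is 0.01, so that a single gene could not fall below an adjusted p of 0.26), and none had a correlation of log2 CPM with distance that passed (smallest Pearson p 0.206, smallest adjusted p 0.941 for Pearson's r and 0.973 for Spearman's rho, permutation tests with 100000 resamples over 10 mice). The largest correlation in size was that of Mki67, with r = -0.44 (permutation p = 0.206) and rho = -0.20 (permutation p = 0.584), and r was -0.17 without O2 and P3, the mice farthest from the median distance.

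Genes that respond to fasting or to exercise varied between mice without following the class. Ppargc1a, the coactivator PGC-1 alpha, had 36.1 CPM in O5 and 3.24 to 10.4 CPM in the other 9 mice, with a class difference of -0.50 ± 0.66, and 0.23 ± 0.31 without O2 and O5. Igfbp1, a liver protein that insulin suppresses, had 5502 CPM in O5, 727 in O4 and 129 to 520 CPM in the other 8 mice. Its class difference was -0.41 ± 1.35 with all mice and 1.46 ± 0.51 without O2 and O5 (unadjusted p = 0.765 and 0.0202, edgeR). Fst, which encodes the exercise-linked hepatokine follistatin, had 22.7 CPM in O5 and 1.32 to 2.99 CPM in the others, with a class difference of -0.91 ± 0.92 and 0.24 ± 0.28 in the 8 mice. Fgf21 ranged from 0.47 to 2.95 CPM and Gdf15, another stress hepatokine, from 5.23 to 42.4 CPM, with class differences of -0.12 and 0.29 that did not pass, and -0.07 and 0.35 in the 8 mice. The serum amyloid gene Saa1 had 8317 CPM in P2, 1474 in O5 and 66.8 to 714 CPM in the other 8 mice, with a class difference of 1.64 ± 1.91, and 3.39 ± 1.20 in the 8 mice (unadjusted p = 0.0207, edgeR).

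**Figure D5:**
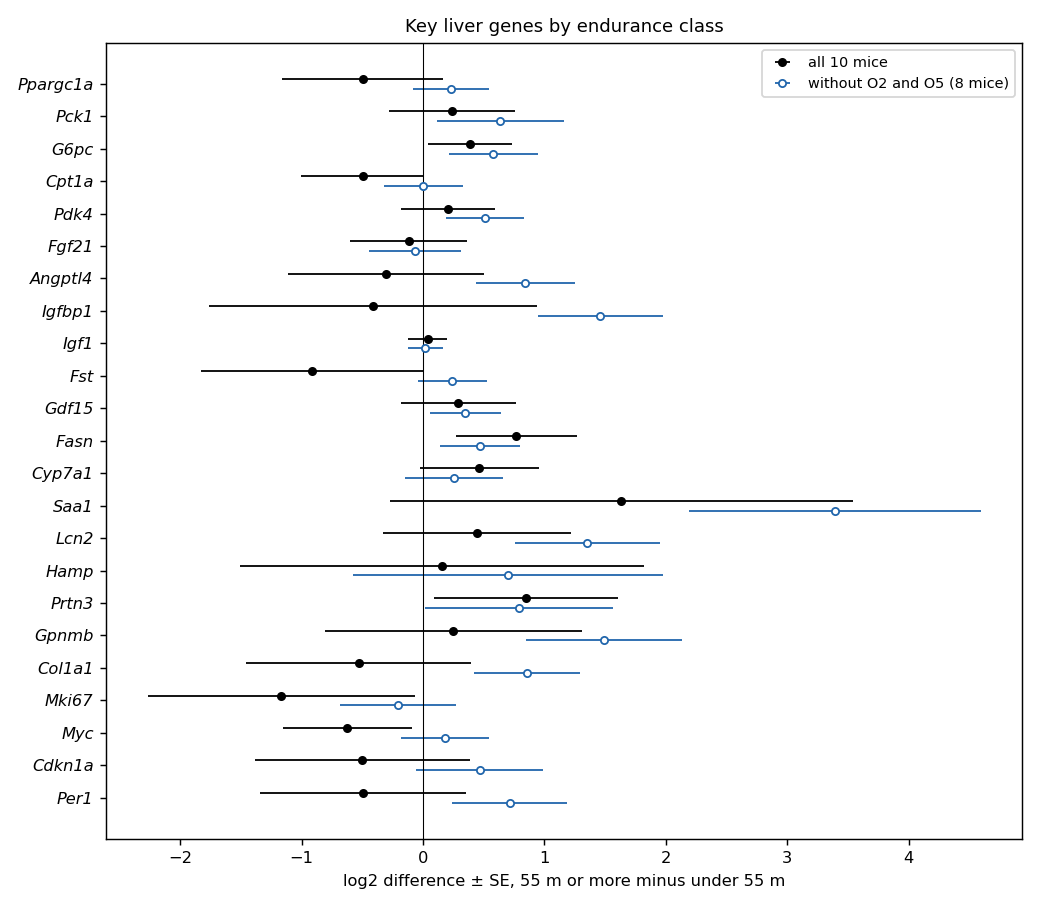
Each row is 1 of 23 key genes, and the points give its log2 difference between the classes with the standard error from edgeR, filled for all 10 mice and open for the 8 mice without O2 and O5. Igfbp1 goes from -0.41 to 1.46 and Per1 from -0.49 to 0.71 between the fits, while Igf1 stays at 0.04 and 0.02 with narrow errors.

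The last comparison asked whether the class difference was unlike in vehicle and PDX mice. In the interaction fit edgeR called 0 of 15423 genes (0%), with 512 genes (3.32%) at an unadjusted p under 0.05, and DESeq2 called 4 (0.0259%). The smallest p-values by edgeR belonged to Ctrl and Cela2a, which encode digestive enzymes of the exocrine pancreas. Cela2a had 61.0 CPM in O3, 64.3 in O4 and 13.7 in P5, and 0.11 to 4.37 CPM in the other 7 mice, and Ctrl had 20.2, 21.6 and 4.06 CPM in the same 3 mice and 0.07 to 1.20 CPM in the others. O3 and O4 are the 2 longer-distance vehicle mice, so the interaction of -8.87 for Ctrl (unadjusted p = 0.000304, edgeR, and adjusted p = 3.22e-05, DESeq2) compares 2 and 3 mice in each cell. Without O2 and O5 the Ctrl interaction was -10.4, with O1 as the only mouse in the shorter-distance vehicle cell. Of the 10 genes listed for pancreas and fat, 3 had enough counts to be tested, and among them Cela1, another pancreatic elastase, had 58.4 CPM in O3 and 77.9 in O4 beside 2.81 to 23.8 CPM in the other 8 mice. The part of pancreatic tissue in these values was not tested. The other genes called by DESeq2 were Sult1e1, an estrogen sulfotransferase, and Cyp2c54, a cytochrome P450. Abcg8 had an interaction of 0.00 and an unadjusted p of 0.992 by edgeR.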

How the data were processed

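Liver mRNA of 15 mice was measured, 1 library per mouse. The deposited counts are whole numbers, not normalized, that the authors made from STAR 2.6.0c alignments to mm10 with featureCounts of Subread 1.6.2, using uniquely placed proper pairs, the transcribed strand and genes outside the mitochondrial genome; 0 columns lacked a sample. A second deposited table, made with DESeq2 (version 1.23.10), was not used. Of 55450 gene IDs, 55104 received symbols and coordinates from GENCODE M21 (GRCm38).

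The members, gene lists and comparisons were chosen with earlier results of these data known. Counts of the 10 mice were fitted in edgeR (version 4.0.16, R 4.3.3) with treatment as a covariate, after filterByExpr (minimum count 10, total 15) and TMM scaling; CPM use these factors. Differences are longer minus shorter, slopes are per 10 m, and the threshold was an adjusted p of 0.05 (Benjamini-Hochberg). Log2 CPM used a prior count of 2. DESeq2 (version 1.42.0) and other settings served as alternatives. The steps were also run on simulated counts with the same spread for every gene and no mice set apart like O2 and O5. That run therefore cannot show how such mice affect the fits. Permutation tests were run in Python 3.11.15 with scipy 1.17.1 (100000 resamples, seed 1, and for 5 against 5 mice the smallest p is 0.00794).

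Named genes were the 5 smallest unadjusted p in each direction of the class and distance fits whose mean log2 CPM reached 1, since none passed the threshold, together with 26 key genes, the 2 smallest p of each of 31 lists and of the interaction; further members past an unadjusted p of 0.05, and genes called by DESeq2, were named after their values were seen. Each mouse is a separate animal. The labels give no sequencing date or euthanasia batch per mouse, so no comparison within batches was made. The description of the series gives a slightly shorter period of gavage than the labels. Results of a few named genes are not reported here.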

Additional observations from a re-analysis of the deposited data

Results flagged for a closer look

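Within a class of 5 mice, single animals lay far from the other 4 in 5 of 100 groups of values examined, and chance marks about 1 in 20 such groups. In the longer-distance class, P2 had 3.42 log2 CPM of Slc4a1 (nearest mouse 0.31), and O3 had 4.31 of Hamp (nearest 7.91). In the shorter-distance class, P5 had a grip force of 122 g (nearest 152 g). O5 had 12.43 log2 CPM of Igfbp1 (nearest 7.98) and 4.51 of Fst (nearest 1.34).

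The class difference in Fst had opposite signs in the treatments, with no overlap of the classes in either: -1.47 in log2 CPM among vehicle mice and 0.58 among PDX mice. With all mice the interaction fit gave 2.93 ± 1.35 on the log2 scale for Fst (unadjusted p = 0.0589, adjusted p = 0.931, edgeR), so the difference between the treatments did not pass. Without O2 and O5 the Fst interaction was 0.85, with O1 as the only mouse in the shorter-distance vehicle cell.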

How the results depend on the processing

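The count of genes past an adjusted p of 0.05 stayed at 0 by class and by distance under all alternatives fitted with edgeR (no treatment covariate, other scalings and filters, robust spread, all 15 mice, 8 mice without O2 and O5, borders at 50 m and 60 m, log2 or rank of the distance), and without each mouse in turn (lowest 0, highest 0). DESeq2 called 0 genes by class, 3 by distance, 1 by distance without O2 and O5 (added after the data were seen) and 4 in the interaction. At an unadjusted p under 0.05 the class count moved from 86 to 860 with the border at 50 m and to 393 without O2 and O5, and from 56 to 290 when single mice were left out; the distance count moved from 259 to a range of 85 (without O4) to 925 (without P3).

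The numbers in the mouse names do not mark a shared animal, and same-numbered mice deviated together with correlations from -0.0317 to 0.289. A replicate block on that number left 0 genes by class and 0 by distance, with 240 and 230 at an unadjusted p under 0.05; 3 of the 5 numbers hold both classes. The block took G6pc to 1.18 by class and 0.37 by distance (unadjusted p = 0.00662 and 0.0312, edgeR) and Pck1 to 1.55 and 0.51 (unadjusted p = 0.0115 and 0.0373, edgeR). Abcg8 was 0.68 and 0.23 (unadjusted p = 0.0266 and 0.0490, edgeR), and Abcg5 was 0.53 and 0.18 (unadjusted p = 0.0723 and 0.0916, edgeR).

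Of 43 genes followed, the sign of the class difference changed in 11 and of the slope in 11 without O2 and O5, and in 9 and 14 with the replicate block. Reversals that reached an unadjusted p under 0.05 were Angptl4 by class without O5 (0.95), Igfbp1 by class without O2 and O5 (1.46) and without O5 (1.27), Igfbp1 by distance without O2 and O5 (0.51, also 0.51 by DESeq2), Col1a1 by distance without O2 and O5 (0.39, also 0.39 by DESeq2) and Saa1 by distance with the replicate block (1.19). The cause was not tested.

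When single mice were left out, no performance or library measure passed. Over the mice left out, the class difference ranged from -0.61 to 0.95 for Angptl4 and from -1.09 to 1.27 for Igfbp1. The performance differences ranged from 0.136 to 0.470 km per day, 1.45 to 5.45 rpm, -10.1 to 0.760 g, -0.0995 to 0.013 in the frailty index and -0.763 to 0.892 percentage points of body weight. With 5 mice per class, the exact tests could not go below p = 0.00794.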
